A study of Sus scrofa with 80 samples.

Results

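IGJ, the gene of the immunoglobulin joining chain (current symbol JCHAIN), and a set of genes known from antibody-secreting plasma cells were followed through the organs of growing Göttingen minipigs (Sus scrofa). The set was chosen by gene name and holds IGJ, MZB1, XBP1, PRDM1, TNFRSF17, POU2AF1, DERL3, FKBP11, SDC1 and PIGR. Of these 10 names, 9 occur among the 23722 genes measured on the array, and SDC1 was not found under that name. IGJ was picked for the rise of its signal with age in bone marrow. The bone marrow age values of all 9 genes, and every comparison of IGJ in bone marrow with another tissue, are therefore given as descriptions with no test.

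Total RNA came from cerebellum, hypothalamus, cortex, liver, kidney, spleen and bone marrow. Each had a male and a female sample at each of 4 ages (1 and 4 weeks, 2 and 4 months) and a male sample at 2 years. With testis at all 5 ages and ovary at the 4 younger ages, this makes 72 tissue samples. The male or the female of an age stands below for the samples so labelled. The labels name no genotype beyond the breed and no drug treatment, and they do not say whether the tissues of a given age and sex came from a single animal, so the p-values measure the spread between these samples and no more. The 2-year-old male differed from the rest in its place of rearing, its feed and the pentobarbital product used for euthanasia, and its 16 arrays lie on 2 slides that hold no younger sample, so age, rearing and slide cannot be told apart at 2 years. The sexes are the only repeats within a tissue and age, and testis, ovary and all 2-year groups have 1 sample each.

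Plasma cells are the end stage of the B cell lineage and secrete antibody in bulk. Their formation is driven by transcription factors that shut down the B cell program and enlarge the endoplasmic reticulum, where folding enzymes and degradation factors handle the load of immunoglobulin chains. Spleen makes plasma cells in the course of immune responses, and bone marrow is known as the site where long-lived plasma cells settle. The joining chain links IgM and IgA monomers into polymers, and the epithelial receptor encoded by PIGR binds these polymers and carries them across mucosal surfaces.

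Values are log2 intensities after background correction and quantile normalization, averaged over the probes of a gene, and levels are compared between samples for the same gene and never between genes, because probes differ in brightness. An array's detection limit was set at the 95th percentile of its negative control spots and lay between 2.29 and 3.39 log2 units over the 80 arrays. IGJ, XBP1, DERL3 and FKBP11 had at least 1 probe that the scanner software marked as well above background in all 72 samples. PRDM1 had such a probe in 62 samples, PIGR and TNFRSF17 in 24 each, MZB1 in 15 and POU2AF1 in 1. Of the 15 MZB1 samples, 8 were spleen, 6 were bone marrow and 1 was cortex. None of the 24 probes of these genes was saturated on any array. In 8 technical repeats of the 2-year-old kidney the SD was 0.057 for IGJ, 0.091 for XBP1 and 0.103 for PRDM1, against a median of 0.115 over all genes, and 0.498 for TNFRSF17. In the tissue check, the 4 liver markers averaged between 10.95 and 11.53 in liver samples, and the bone marrow samples up to 4 months had mean neutrophil granule levels between 11.52 and 12.39. The 2-year marrow sample had only 7.09 for the same 6 neutrophil granule genes and 3.73 for 6 erythroid genes, against 8.41 to 9.58 in the younger marrows. Over all genes this sample was nearest to a spleen sample at 4 weeks (Pearson r = 0.931), the only one of the 72 whose nearest sample came from another tissue, so that its profile went against its label. What this sample is was not tested, and its levels are given apart from those up to 4 months, though it is part of the correlations. All tests below leave out the 2-year samples.

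In bone marrow the IGJ signal climbed at every age, from 5.65 in the female and 5.51 in the male at 1 week to 9.00 and 8.53 at 4 weeks, 11.00 and 11.12 at 2 months and 12.53 and 12.52 at 4 months. The 2-year-old male stood at 13.16, in the sample with few neutrophil and erythroid transcripts named above. No value of a later age overlapped with an earlier one, and the sexes of an age differed by less than any step between ages. At 1 week the bone marrow level lay within the range of the brain samples, where IGJ was between 5.45 and 6.42. The 4-month mean exceeded the 1-week mean by 6.94 log2 units, a 123-fold difference, and the successive steps were 3.18, 2.30 and 1.46, followed by 0.63 from 4 months to 2 years. The mean of the 4 older samples, 11.79 ± 0.85 (SD, n = 4, 2 and 4 months), was 24.6-fold above that of the 4 younger samples, 7.17 ± 1.85 (SD, n = 4, 1 and 4 weeks). Both IGJ probes moved alike, by 7.01 and 6.88 from 1 week to 4 months. Here and in all the results that follow, more plasma cells and more transcript per cell cannot be told apart, because the RNA is from whole tissue.

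**Figure D1:**
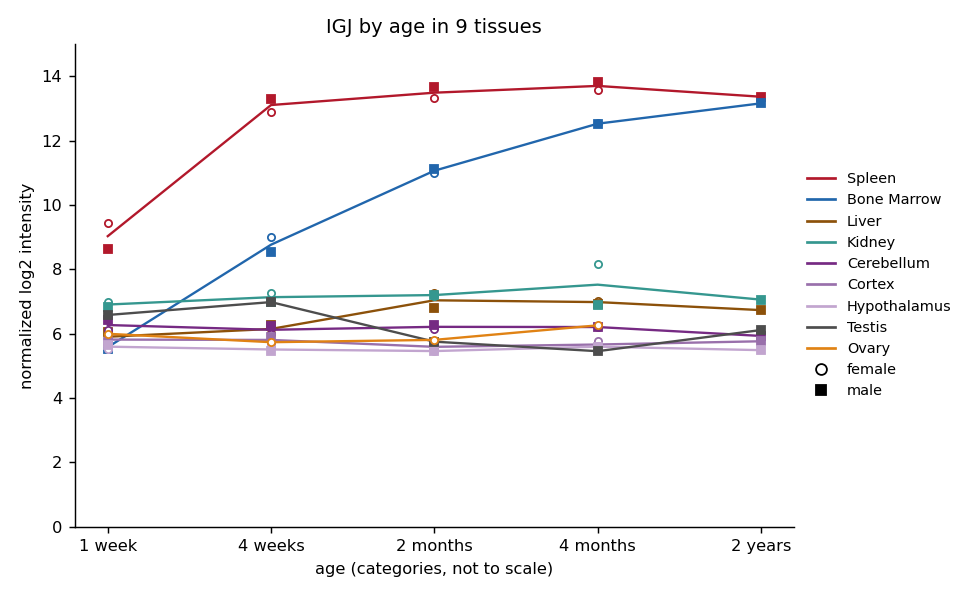
Normalized log2 intensity of IGJ (vertical axis) at each age (horizontal axis, categories not to scale) in 9 tissues. Open circles are females, filled squares males and lines join the means, and spleen reaches 12.90 to 13.83 from 4 weeks on while bone marrow climbs at each age from 5.51 to 13.16 and all other tissues stay below 8.2.

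MZB1, a resident protein of the endoplasmic reticulum that assists antibody assembly and secretion, was the only other gene of the set whose older and younger bone marrow samples did not overlap. Its levels were 3.79 and 4.13 in the female and the male at 1 week, 4.56 and 4.61 at 4 weeks, 5.49 and 5.92 at 2 months, 6.97 and 5.59 at 4 months and 6.44 at 2 years. No MZB1 probe was well above background in marrow at 1 week, so the rise to 4 months was at least 4.98-fold (log2 difference 2.31). Higher older samples without overlap were seen for 5.94% of all genes in bone marrow, and nothing is read from the 2 of 9 found here, since this contrast chose the set.

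The other genes of the set moved little with age in bone marrow up to 4 months. PRDM1, which encodes the repressor Blimp-1 that commits B cells to the plasma cell fate, was 6.18 and 5.57 at 1 week, 4.73 and 6.28 at 4 weeks, 5.99 and 6.05 at 2 months and 6.75 and 6.25 at 4 months (female, then male). XBP1, the transcription factor of the unfolded protein response that builds secretory capacity, lay between 10.27 and 10.98 in the same 8 samples. At 2 years these regulators stood at 7.53 and 11.39, above every younger marrow sample, in the sample that was nearest to spleen. DERL3, which acts in the removal of misfolded proteins from the endoplasmic reticulum, stayed between 6.13 and 6.70 up to 4 months, and FKBP11, a prolyl isomerase of secretory cells, between 7.90 and 8.86. The older minus younger differences of PRDM1, XBP1, DERL3, FKBP11, TNFRSF17, POU2AF1 and PIGR were 0.57, -0.33, 0.05, -0.09, -0.31, -0.14 and -0.10 log2 units, and the groups overlapped for all 7.

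In spleen several of these genes changed early, between the first and the second age. IGJ was 9.43 in the female and 8.63 in the male at 1 week and 12.90 and 13.31 at 4 weeks, and then 13.32 and 13.66 at 2 months, 13.57 and 13.83 at 4 months and 13.36 in the 2-year-old male. Thus the 1-week samples lay far below all others, and the later ages lay within 1 log2 unit of each other. MZB1 was 5.13 and 4.62 at 1 week, 7.37 and 7.46 at 4 weeks, 8.24 and 8.34 at 2 months and 8.06 and 8.24 at 4 months. PRDM1 was 5.66 and 5.51 at 1 week and between 7.43 and 7.87 in the 6 samples from 4 weeks to 4 months.

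The age comparison planned for each tissue set the 4 older samples (2 and 4 months) against the 4 younger (1 and 4 weeks), so in spleen its younger group joined the low 1-week and the high 4-week values. POU2AF1, a B cell coactivator of octamer-binding transcription factors, was the 1 gene of 9 that passed in limma, with a difference of 0.77 ± 0.16 (SE) log2 units (adjusted p = 0.040). Of all genes 3.11% passed in spleen, and 1.55% of all genes passed as higher in the older samples. POU2AF1 was close to the background, with a well-measured probe in only 1 of the 8 samples, and the call was lost with sex as a block (adjusted p = 0.074) or when any of 6 of the 8 samples was left out (adjusted p between 0.078 and 0.12). IGJ, MZB1, DERL3 and FKBP11 also had older samples entirely above the younger ones, which 8.8% of all genes showed, but did not pass. Their differences were 2.53 ± 0.98 for IGJ (adjusted p = 0.18), 2.08 ± 0.62 for MZB1 (adjusted p = 0.10), 0.89 ± 0.23 for DERL3 (adjusted p = 0.070) and 0.63 ± 0.19 for FKBP11 (adjusted p = 0.11). In a single fit over 7 tissues, where spleen takes the spread of the other organs, 6 of the 9 passed, and 5 with slide as a further term. The share of all genes that passed in that fit is not given here, so nothing is read from these counts.

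The steps between successive ages, tested after the values had been seen, placed the change in spleen between 1 and 4 weeks. In this step 6 of 9 genes rose in limma and none fell, beside 33.5% of all genes that changed and 17.7% that rose. IGJ rose by 4.07 ± 0.28 log2 units, 16.8-fold (adjusted p = 0.000126). MZB1 rose by 2.54 ± 0.19, 5.82-fold (adjusted p = 0.000146), and PRDM1 by 2.18 ± 0.18, 4.52-fold (adjusted p = 0.000176). The secretory genes moved less, XBP1 by 1.11 ± 0.17 (adjusted p = 0.00185), DERL3 by 0.84 ± 0.14 (adjusted p = 0.00264) and FKBP11 by 0.64 ± 0.14 (adjusted p = 0.00959). The FKBP11 call was lost without the 4-week male (adjusted p = 0.057), under median scaling (adjusted p = 0.0601) and on the scanner's processed signal (adjusted p = 0.15). TNFRSF17, the survival receptor BCMA, differed by 0.54 (adjusted p = 0.30), POU2AF1 by 0.26 (adjusted p = 0.26) and PIGR by -0.03 (adjusted p = 0.89).

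**Figure D2:**
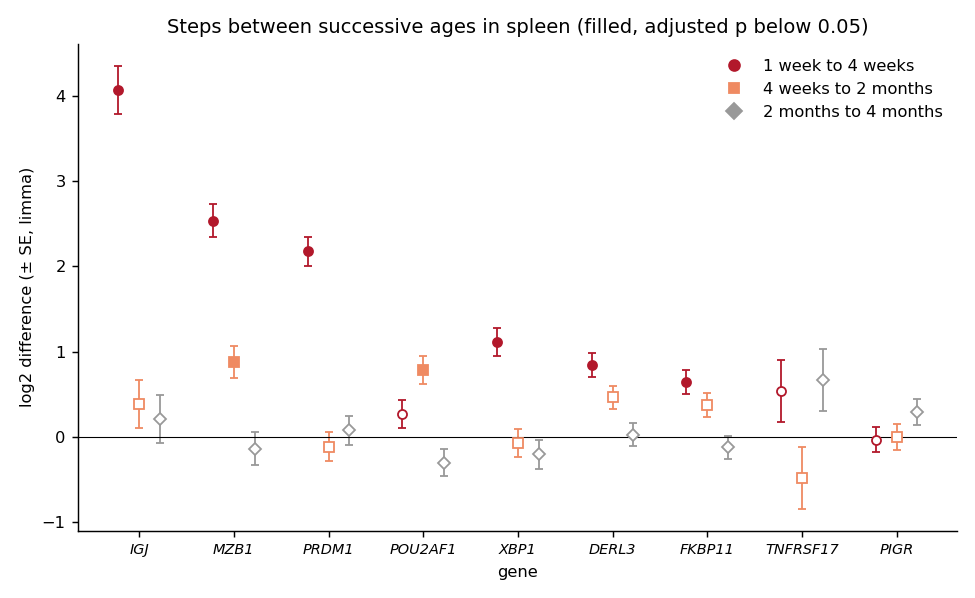
Log2 difference between successive ages in spleen (vertical axis, limma estimate with bars for the SE, 2 samples per age) for each of the 9 genes (horizontal axis). Filled symbols passed an adjusted p of 0.05, which 6 genes did from 1 to 4 weeks, MZB1 and POU2AF1 from 4 weeks to 2 months and none from 2 to 4 months.

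From 4 weeks to 2 months only MZB1 and POU2AF1 passed in limma, both higher, beside 3.15% of all genes that rose and 7.45% that changed, and 4 of 9 had an unadjusted p under 0.05. The step was 0.88 ± 0.19 for MZB1 (adjusted p = 0.037) and 0.79 ± 0.16 for POU2AF1 (adjusted p = 0.032), the latter close to background. Both calls were lost when any single sample from 4 weeks to 4 months was left out. From 2 to 4 months 0 of 9 genes passed in limma and 0 had an unadjusted p under 0.05, and 0.0126% of all genes passed. With the 6 later samples set against the 2 at 1 week, 6 of 9 genes were higher and none lower, beside 29.4% of all genes that differed and 15.6% that were higher. This gave 21.1-fold for IGJ (4.40 ± 0.27 log2 units, adjusted p = 1.45e-05), 8.45-fold for MZB1 (3.08 ± 0.29, adjusted p = 8.53e-05) and 4.36-fold for PRDM1 (2.12 ± 0.15, adjusted p = 2.14e-05). DERL3 was 2.23-fold higher, XBP1 1.99-fold and FKBP11 1.80-fold, with adjusted p-values of 0.00138, 0.00134 and 0.00295, and leaving out any sample kept all 6 calls.

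The probes of DERL3 and FKBP11 fall into kinds that their names tag Sp and Xhyb, without a definition in the sources used here, and these kinds disagreed. From 1 week to 4 months in spleen the 2 DERL3 probes tagged Sp rose by 1.87 and 2.32 log2 units and the 2 tagged Xhyb by 0.55 and 0.56. For FKBP11 the order was the other way round, with changes of -0.06 and 0.64 for Sp and between 1.09 and 1.27 for the 4 Xhyb probes. The FKBP11 probes tagged Sp were well above background in only 4 and 0 of the 72 samples, and those of DERL3 in 17 and 6. All Xhyb probes of both genes were so in 72 of 72, so the FKBP11 Sp values lie mostly at background. With Sp probes only, the DERL3 difference between 1 week and later ages was 1.79 (limma, adjusted p = 0.00047) and that of FKBP11 was 0.45 (adjusted p = 0.094), so the DERL3 call does not rest on the Xhyb probes and the FKBP11 call does. XBP1 has only Xhyb probes, which rose by 0.79 and 0.86, and the other 6 genes have only Sp probes.

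**Figure D3:**
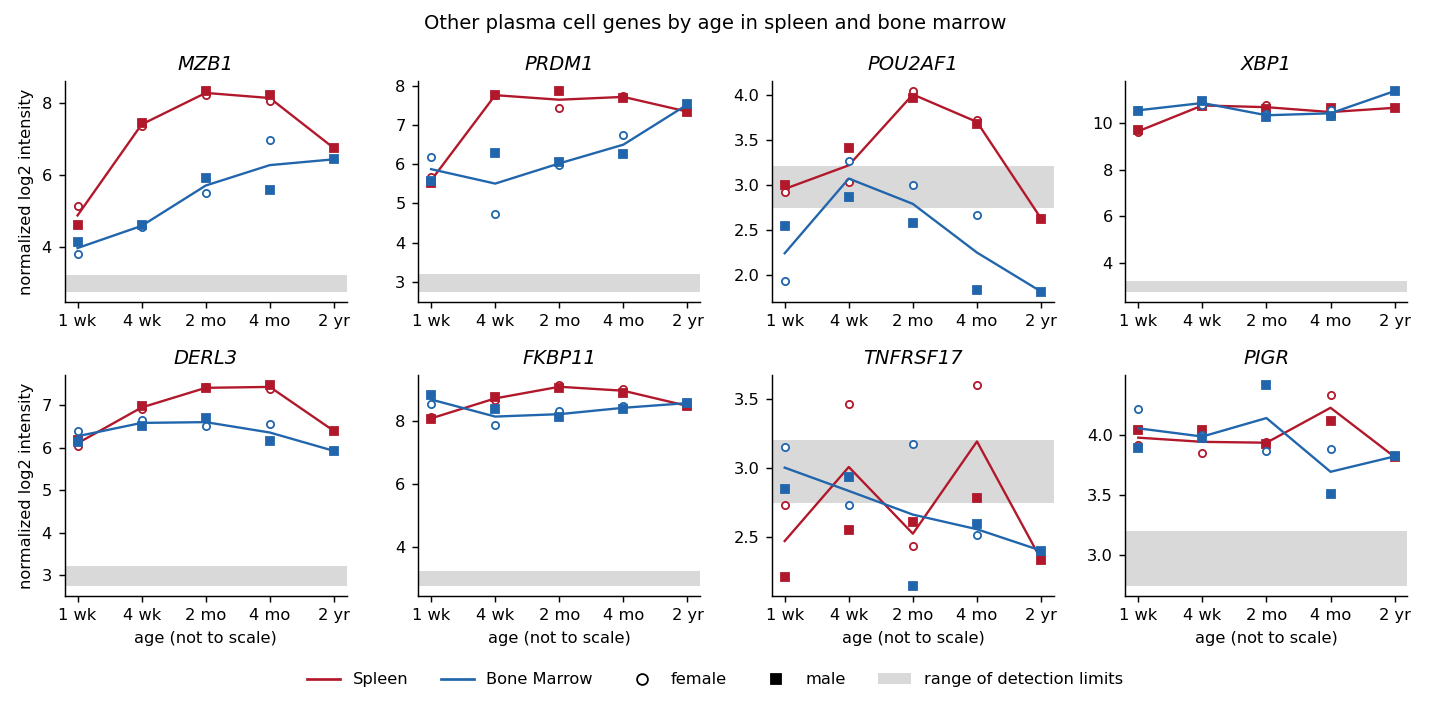
Normalized log2 intensity (vertical axes, scaled per gene) of the 8 other genes by age (horizontal axes, not to scale) in spleen (red) and bone marrow (blue). Circles are females, squares males, lines join the means and the grey band spans the detection limits of these arrays. MZB1 and PRDM1 in spleen step up from 1 week to 4 weeks, and POU2AF1 and TNFRSF17 lie in or near the band.

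Spleen and bone marrow of the same age were compared as a description only. IGJ in spleen exceeded IGJ in bone marrow of the same age by 3.45 log2 units at 1 week and by 4.34 at 4 weeks, then by 2.42 at 2 months, by 1.17 at 4 months and by only 0.21 in the 2-year-old male. The gap was widest at 4 weeks and smallest in the 2-year-old male, whose sample labelled bone marrow was the one nearest to spleen over all genes. The gap of MZB1 went from 0.91 through 2.83, 2.58 and 1.87 to 0.31 over the same ages. For XBP1 the spleen minus marrow difference was -0.90 at 1 week, close to 0 at the next ages (-0.11, 0.35 and 0.05) and -0.72 at 2 years.

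Markers of other cells moved in spleen at the same time, and their part in the rise of the plasma cell genes was not tested. Between 1 week and later ages all 6 neutrophil granule genes measured fell (median difference -1.94 log2 units), and their mean level dropped from between 8.86 and 9.46 at 1 week to between 5.63 and 7.43 later. Of 6 erythroid genes 5 fell (median -4.15), from a mean level between 9.17 and 9.30 to between 4.45 and 6.58. KLF1, an erythroid transcription factor, fell by 7.89. T cell genes went up in 3 of 5 cases, with CD3E, a chain of the T cell receptor complex, 2.77 higher and CD2 2.03 higher. Of 5 epithelial genes 2 were higher and 1 lower. Of all genes in this contrast, 15.6% were higher and 13.8% lower.

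The wider plasma cell pathway in spleen was read from lists of related genes. Of 11 B cell surface and signalling genes on the array, 7 were higher and 1 lower after 1 week, with a median difference of 1.06 against 0.02 over all genes. CD79A and CD79B, the signalling chains of the B cell receptor, were higher by 2.23 and 2.22, and CD27 by 1.96, whereas MS4A1, which encodes CD20, was lower by 0.61 (difference -0.61). Of 7 transcription factors of B and plasma cells, 3 were higher and 1 lower, again beside 15.6% and 13.8% of all genes. IRF4, which acts with Blimp-1 in plasma cell formation, was higher by 1.93 and IKZF3 by 1.95, and ELL2, an elongation factor used for secretory immunoglobulin transcripts, was lower (difference -2.17). Of 12 survival and homing genes 8 were higher and none lower, with a median of 0.88. TNFSF13B, the cytokine BAFF, was higher by 1.82, SLAMF7, a surface protein of plasma cells, by 1.73 and CXCL12, a chemokine that retains plasma cells, by 1.28.

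The secretory machinery moved in part. Of 36 genes of endoplasmic reticulum chaperones, translocation and the unfolded protein response, 11 were higher and 1 lower after 1 week in spleen, beside 15.6% and 13.8% of all genes, and the median difference was 0.24. PDIA4, which forms disulfide bonds, was higher by 0.96, and SYVN1 and HERPUD1, which act in degradation, by 0.95 and 0.90. HSPA5, the chaperone BiP, was lower (difference -0.74), at a signal of 4.70 at 1 week and 3.97 later. Among 10 FK506 binding proteins other than FKBP11, 2 were higher and 2 lower, and among 3 syndecans, the family of the missing SDC1, SDC2 was higher by 0.62. In the planned contrast of older against younger spleens, 3 of the 11 B cell genes, 1 of the 7 transcription factors, 0 of the 12 survival genes and 0 of the 36 secretory genes passed in limma, all 4 being higher (CR2, BLNK, CD79B and IRF4), beside 1.55% of all genes that were higher in that contrast. In bone marrow, given without counts of calls, the same lists had median differences between 1 week and later of 0.27 for B cell genes, 0.41 for transcription factors, 0.31 for survival and homing genes and -0.19 for secretory genes, against 0.06 over all genes.

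**Figure D4:**
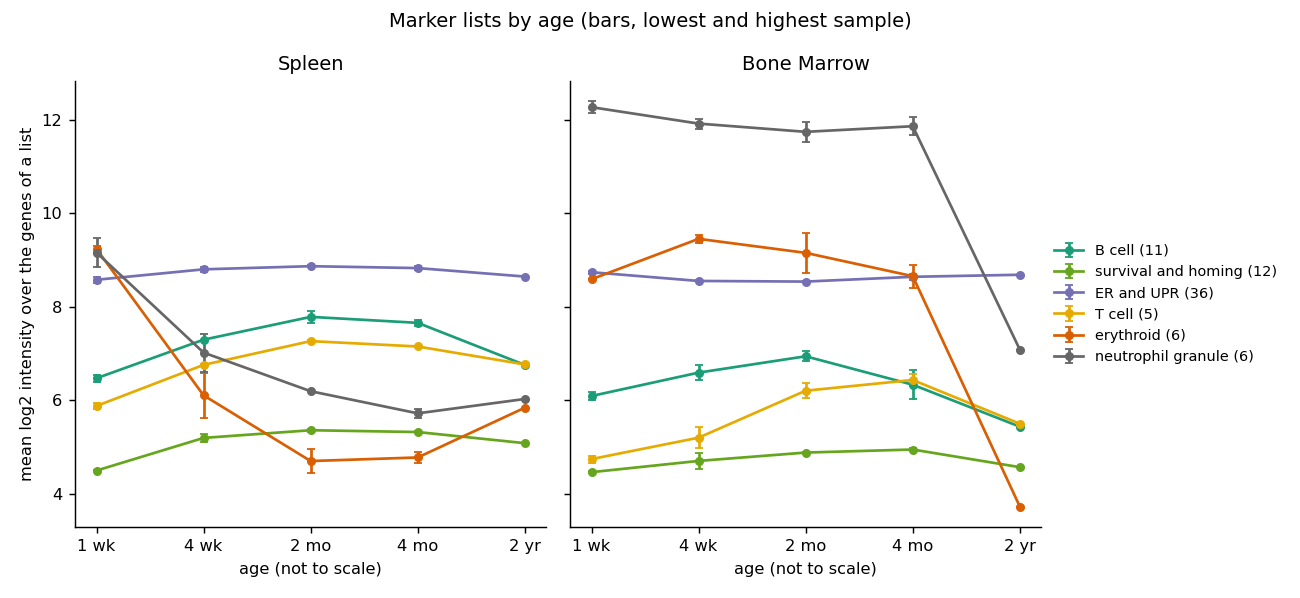
Mean log2 intensity over the genes of a marker list (vertical axis, number of genes in the key) by age (horizontal axis, not to scale) in spleen and bone marrow. Points are means over the samples of an age and bars run from the lowest to the highest sample, and neutrophil granule and erythroid genes fall in spleen after 1 week. In bone marrow they are low only in the single 2-year sample, whose profile went against its label. Levels of different lists come from different probes and have no order.

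In liver, kidney and the brain regions the planned age contrast gave 1 call in the set, for IGJ in liver. Testis and ovary were not tested and are described further below. In liver IGJ was 5.75 and 6.06 at 1 week, 6.03 and 6.26 at 4 weeks, 7.28 and 6.80 at 2 months and 7.03 and 6.94 at 4 months (female, then male), and 6.73 at 2 years. All older samples up to 4 months lay above the younger ones. The difference of 0.98 ± 0.16, 1.98-fold, passed in limma (adjusted p = 0.024) as the only gene of the 9, beside 0.683% of all genes higher and 1.81% changed in liver. The call was lost without either sample at 1 week, either at 4 months or the male at 2 months (adjusted p between 0.053 and 0.089), and in the single fit over 7 tissues (adjusted p = 0.34). Among markers of other cells in liver, the T cell genes CD3E and CD2 passed upward, 2 of 5 T cell genes, the erythroid list had a median of -1.38 with 0 of 6 passing and S100A8 was the 1 of 6 neutrophil genes that was lower. In the contrast of 1 week with later ages, KLF1 of the erythroid list was lower in liver (difference -5.69, limma, adjusted p = 1.04e-05). The part of these markers in the IGJ difference was not tested.

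In kidney IGJ was 6.98 and 6.83 at 1 week, 7.27 and 6.99 at 4 weeks, 7.18 and 7.22 at 2 months and 7.06 at 2 years, and 8.15 in the female against 6.89 in the male at 4 months. The 4-month female thus stood above every other kidney sample. FKBP11 was also highest in it, at 8.19 against 7.61 to 8.00 in the others, whereas MZB1 and PRDM1 were not. Over the 9 kidney samples the Pearson correlation with IGJ was 0.49 for FKBP11, 0.47 for PIGR, 0.32 for MZB1 and 0.29 for DERL3. It was 0.20 for TNFRSF17, 0.13 for POU2AF1, -0.04 for PRDM1 and -0.27 for XBP1. PIGR in kidney was 3.96 and 3.80 at 1 week and between 4.43 and 4.74 in the 6 samples from 4 weeks to 4 months, a difference of 0.68 ± 0.15 that missed the threshold (limma, adjusted p = 0.057), in a contrast where 0 of 9 genes and 1.39% of all genes passed. In the planned contrast 0 of 9 genes passed in kidney (2 with an unadjusted p under 0.05, 8.46% of all genes passing), and likewise 0 of 9 in cerebellum (1 under 0.05, 2.29% of all genes), cortex (2 under 0.05, 1.77%) and hypothalamus (0 under 0.05, 0% of all genes).

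Whether the age change differed between organs was tested for spleen against liver and for kidney against liver. The older minus younger difference was larger in spleen than in liver for 4 of 9 genes in limma, beside 5.89% of all genes, by 1.69 ± 0.47 for MZB1 (adjusted p = 0.0132), 1.24 ± 0.41 for PRDM1 (adjusted p = 0.0385), 0.84 ± 0.21 for FKBP11 (adjusted p = 0.00567) and 0.82 ± 0.21 for DERL3 (adjusted p = 0.00793). For IGJ it was larger by 1.54 ± 0.82, which did not pass (adjusted p = 0.24). The fit behind these values shares 1 spread over 7 tissues, so spleen takes the spread of the other organs. In spleen alone the SEs of MZB1 and PRDM1 were larger, 0.62 and 0.53. None of the 4 genes passed there (limma, adjusted p = 0.10 for MZB1, 0.31 for PRDM1, 0.11 for FKBP11 and 0.070 for DERL3). With slide as a term MZB1 and PRDM1 were lost (adjusted p = 0.10 and 0.14), and under median scaling PRDM1 and FKBP11 (adjusted p = 0.079 and 0.077). With Sp probes only, FKBP11, whose Sp probes lay mostly at background, fell to 0.03 (adjusted p = 0.96). DERL3 kept its call under each of these. Kidney against liver gave 0 of 9 in limma, with 0 at an unadjusted p under 0.05 and 2.38% of all genes passing.

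Across tissues the mean IGJ level over the 8 samples up to 4 months was 12.33 ± 2.07 (SD) in spleen, 9.48 ± 2.81 in bone marrow, 7.19 ± 0.42 in kidney, 6.52 ± 0.56 in liver, 6.20 ± 0.12 in cerebellum, 5.72 ± 0.14 in cortex and 5.54 ± 0.08 in hypothalamus. Testis at 5 ages averaged 6.18 ± 0.62 and ovary at 4 ages 5.95 ± 0.23. Spleen exceeded liver 56.2-fold (5.81 ± 0.57 log2 units, limma, adjusted p = 1.74e-12) and kidney 35.2-fold (adjusted p = 7.27e-11), and it did so in all 8 pairs of the same age and sex. None of the neighbours below bone marrow in this order differed in limma, whose single spread of IGJ includes the age changes of spleen and marrow. An exact sign-flip permutation test over the 8 pairs, chosen after the values were seen and adjusted over 4 tests, put kidney above liver by 0.67 ± 0.54 (SD, higher in 6 of 8 pairs, 2-sided exact p = 0.031, adjusted p = 0.042). The kidney and liver means were 7.02 and 6.03 in the younger samples and 7.36 and 7.01 in the older. Liver was the higher in the 2-month female and the 4-month male pair. The same exact test put cerebellum above cortex by 0.48 ± 0.18 (8 of 8 pairs, p = 0.0078, the smallest that it can give, adjusted p = 0.031) and cortex above hypothalamus by 0.18 ± 0.16 (7 of 8 pairs, p = 0.016, adjusted p = 0.031). Liver and cerebellum differed by 0.32 ± 0.56 (exact p = 0.13, adjusted p = 0.13), within their spread.

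**Figure D5:**
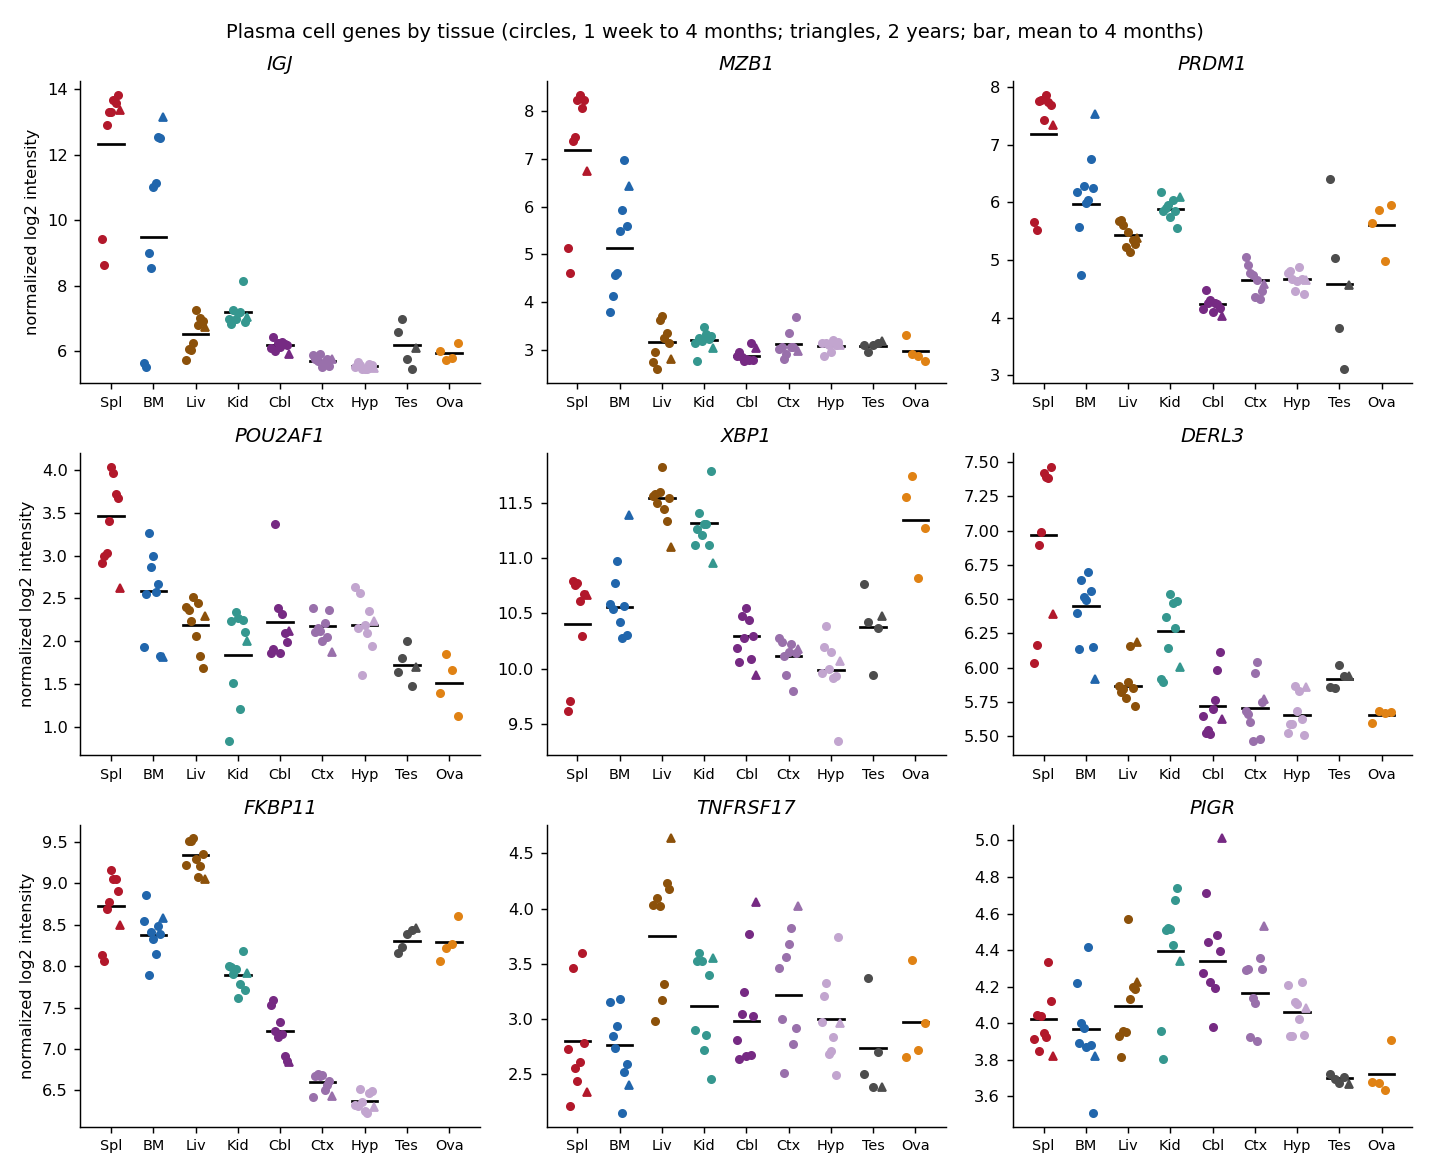
Normalized log2 intensity (vertical axes, scaled per gene) of the 9 genes in spleen, bone marrow, liver, kidney, cerebellum, cortex, hypothalamus, testis and ovary (horizontal axes, in this order). Circles are samples up to 4 months, triangles the 2-year-old male and bars means up to 4 months. IGJ, MZB1, PRDM1, POU2AF1 and DERL3 have their highest mean in spleen, XBP1, FKBP11 and TNFRSF17 in liver and PIGR in kidney.

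The other genes of the set did not share a single tissue order. Between spleen and bone marrow, where 40.9% of all genes passed and 22.4% were higher in spleen, 5 of 8 genes were higher in spleen (IGJ was not tested) and none lower. These differences average over the ages. At 1 week the spleen minus marrow means were -0.29 for PRDM1, -0.17 for DERL3 and -0.60 for FKBP11, and 0.91 for MZB1 and 0.71 for POU2AF1. From 4 weeks to 4 months they were positive for each of these genes. Over all ages to 4 months MZB1 was higher by 2.05 ± 0.30 (adjusted p = 2.64e-07) and PRDM1 by 1.20 ± 0.24 (adjusted p = 5.09e-05, higher in 6 of 8 pairs). POU2AF1 was higher by 0.88, DERL3 by 0.52, and FKBP11 by 0.35 (adjusted p = 0.025), the last call being lost in 5 of the other ways to process the arrays and without any of 6 of the 8 pairs. A POU2AF1 probe was well above background in only 1 of 9 spleen samples, 0 of 9 marrow samples and 0 of 9 liver samples, so no fold is given for it. Between spleen and liver 5 of 9 were higher and 3 lower in spleen, beside 34.4% and 24.9% of all genes. MZB1 was at least 16.1-fold higher (adjusted p = 2.70e-16), PRDM1 3.36-fold and DERL3 2.15-fold, and POU2AF1 was higher by 1.28 log2 units. Liver had the higher level of XBP1 (spleen minus liver -1.15 ± 0.13 log2 units), of FKBP11 (-0.61) and of TNFRSF17 (-0.96), while PIGR did not pass. Between spleen and kidney 6 were higher in spleen and 2, XBP1 and PIGR, in kidney, beside 31.3% and 25% of all genes, and between liver and kidney 4 of 9 differed (51.6% of all genes), FKBP11 by 1.45 and TNFRSF17 by 0.63 in favor of liver, DERL3 and PIGR in favor of kidney.

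XBP1 was bright in every organ, with means of 11.55 in liver, 11.34 in ovary and 11.32 in kidney, 10.55 in bone marrow and 10.40 in spleen, and between 9.98 and 10.39 in testis and the 3 brain regions. Of the neighbours in that order, testis and ovary left out because they were not tested, only kidney and bone marrow differed in limma (0.76, adjusted p = 1.62e-06). FKBP11 was graded more finely, from 9.34 in liver through 8.73 in spleen, 8.38 in bone marrow, 7.89 in kidney, 7.22 in cerebellum and 6.60 in cortex to 6.37 in hypothalamus, and each neighbour passed in limma except cortex and hypothalamus (adjusted p = 0.22), although cortex was the higher in 8 of 8 pairs, by 0.24. With its Sp probes only, FKBP11 was higher in spleen than in bone marrow by 0.70 (adjusted p = 2.35e-06) and than in kidney by 0.25 in place of 0.84 (adjusted p = 0.056), and the excess of liver over kidney was 0.62 in place of 1.45. These Sp probes were well above background in only 4 and 0 of the 72 samples, so little can be read from these values. PRDM1 was highest in spleen at 7.18, and bone marrow and kidney (5.98 and 5.89) did not pass in limma (adjusted p = 0.76), whereas liver (5.43) exceeded hypothalamus (4.67, adjusted p = 0.0042). Kidney was above liver in all 8 pairs, by 0.45 with SDs of 0.19 and 0.22, which missed the threshold in limma (adjusted p = 0.11), where the spread is shared with spleen and marrow. DERL3 was 6.97 in spleen, 6.45 in bone marrow and 6.26 in kidney, and kidney exceeded liver (5.87, adjusted p = 0.0054), a call lost on the processed signal (adjusted p = 0.099). Over all genes, 61.8% passed between kidney and bone marrow, 59.5% between kidney and cerebellum, 40.2% between cerebellum and cortex, 66.5% between liver and hypothalamus and 67.5% between liver and cortex.

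The signals of PIGR and TNFRSF17, the receptors of the set, did not follow that of IGJ, and both lay near background in many samples. PIGR means ran only from 3.97 in bone marrow to 4.39 in kidney in the tissues tested, with no difference between neighbours, though kidney exceeded spleen by 0.37 and liver by 0.30 in limma (adjusted p = 0.0060 and 0.029). The kidney and liver call was lost under median scaling (adjusted p = 0.10) and without any of 4 of the 8 pairs. A PIGR probe was well above background in 8 of 9 cerebellum and 5 of 9 kidney samples. In spleen, bone marrow and liver it was so in 1 of 9 each, so these differences lie close to background. PIGR in testis lay between 3.67 and 3.72 at all 5 ages. TNFRSF17 was highest in liver, 3.76 ± 0.51 (SD, n = 8), against 3.22 in cortex, the next tissue (limma, adjusted p = 0.029), 2.80 ± 0.49 in spleen and 2.77 ± 0.34 in bone marrow. Liver was above cortex in 5 of 8 pairs, by 0.54, and the technical repeats of this gene had an SD of 0.498. Its excess in liver over kidney did not pass in every run with a pair left out (limma, adjusted p up to 0.084). In spleen and bone marrow 2 of 9 samples each were above the detection limit, and of its 2 probes 1 was never well above background and differed between spleen and liver by -0.12, while the other differed by -1.79. The IGJ-rich organs thus had TNFRSF17 at or under the detection limit in most samples on this array.

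In testis PRDM1 was 6.40 in the 1-week male, 5.04 in the next, 3.81 and 3.10 in those of 2 and 4 months and 4.57 in the oldest. IGJ in testis was 6.58, 6.98, 5.75, 5.46 and 6.11 at these ages, and in ovary 6.00, 5.73, 5.81 and 6.26 at the 4 younger ones. Each age has a single sample here, and these values were not tested. Between the sexes 0 of 9 genes differed in limma over 28 male and female pairs, 0 had an unadjusted p under 0.05 and 0.253% of all genes passed, and the largest difference among the 9 was -0.05 log2 units, in POU2AF1.

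At 2 years, with 1 male in each tissue, MZB1 in spleen was 6.75, 1.40 below the 4-month mean (difference -1.40), DERL3 was 6.39 (difference -1.04) and POU2AF1 2.63 (difference -1.07), while IGJ was 13.36 (difference -0.34) and XBP1 10.67 (difference 0.18). In the same spleen the B cell list had a mean level of 6.76, against 7.66 at 4 months. In bone marrow IGJ, PRDM1 and XBP1 were 0.63, 1.03 and 0.96 above 4 months and MZB1 0.16 above, and the B cell list was at 5.44 against 6.33. The marrow values are those of the sample whose profile went against its label, and slide and rearing cannot be told apart from age in any of these differences.

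Likeness of pattern was measured by Pearson correlation of log2 values over the 72 samples, which share tissues and ages and are not independent, so the values are descriptions. Within the set, IGJ was most like MZB1 (r = 0.952), then PRDM1 (0.823), DERL3 (0.802), POU2AF1 (0.604) and FKBP11 (0.480), and least like XBP1 (0.096), PIGR (-0.157) and TNFRSF17 (-0.290). Over the 18 spleen and bone marrow samples alone the value for IGJ and MZB1 was 0.909 and for IGJ and PRDM1 0.782. Within single tissues the order differed. Over the 9 spleen samples XBP1 (0.909) and FKBP11 (0.880) were close to IGJ beside PRDM1 (0.977) and MZB1 (0.948). Over the 9 samples labelled bone marrow MZB1 (0.922) was, while PRDM1 had 0.540, XBP1 0.093, DERL3 -0.088, POU2AF1 -0.154 and FKBP11 -0.282. Among 12887 other genes with symbols, the 5 most like IGJ were MZB1, IGLL5 (0.945), an immunoglobulin lambda-like gene, SLAMF7 (0.932), TRAT1 (0.927) and KLRK1 (0.927), the last of which are known from T cells and natural killer cells. The mean IGLL5 level was 9.45 in spleen at 1 week and 13.56 later, and 10.87 in bone marrow. For XBP1 the nearest gene was SSR2 (0.866), of the translocon-associated complex, for FKBP11 SEC61B (0.918), a subunit of the translocation channel, for DERL3 FCRL4 (0.867), an Fc receptor-like protein of B cells, for POU2AF1 NCR3 (0.795) and for PRDM1 MFSD7 (0.926). The nearest genes of PIGR and TNFRSF17 were NOS2 (0.734) and RRM2B (0.656).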

How the data were processed

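Single-color custom Agilent arrays of 62976 spots, 61289 of them gene probes, were hybridized with Cy3-labeled RNA. As deposited, the scanner files (Agilent Feature Extraction 11.5.1.1) give a raw median and a processed intensity for each spot without normalization between arrays, and the authors added a matrix of their own processed log2 values, whose columns all have a median of 4.57. Over spots brighter than the array median that matrix had slopes between 0.898 and 1.11 on the log2 processed signal, so it was used as log2, and its centering is not stated. The median raw gene spot intensity lay between 27 and 89 per array and that of the 308 negative controls between 17 and 25, so dim genes have little precision.

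The paper's methods name robust multi-array analysis and averaging before the log. Here, instead, raw medians were corrected with normexp (offset 0) in limma 3.58.1 under R 4.3.3, with data.table in version 1.17.8, quantile normalized, taken to log2 and averaged over spots and probes. Flagged spots, 10 to 590 per array, were left out, and 14 genes were dropped for it. The 8 kidney repeats of the 2-year-old male were averaged. Groups came from the deposited labels. The members and lists were chosen with earlier results of these data known. The genes named are the members, up to 3 list genes per direction with the largest changes past the threshold (applied also to 1 week against later ages, after its values were seen), markers and the nearest genes by correlation.

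Tests were limma fits (lmFit, eBayes) with Benjamini-Hochberg adjustment over 23722 genes at 0.05, per tissue for age, with age and sex strata as blocks between 7 tissues, and over 28 pairs for sex. They were tested on simulated data. A tissue has at most 1 sample per slide, so no value within a slide exists, and slide entered as a term in fits over all tissues. Where the lower group had no probe well above background and the higher group was measured, the fold is a lower bound. POU2AF1 was close to background in both groups, so no fold is given for it. Alternatives were the processed signal, the authors' matrix, an offset of 50, median scaling, the median of probes, a filter on dim genes, the blocks, the slide, the 2-year male, a stricter detection limit and leaving out samples. The age steps, the contrast of 1 week with later ages, Sp probes only and the sign-flip test were added after seeing the data. Plots were made with matplotlib 3.10.9 under Python 3.11.15. The renal pelvis array entered no comparison.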

Additional observations from a re-analysis of the deposited data

Results flagged for a closer look

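Among 135 groups of 4 samples or more of 1 gene in 1 tissue, 8 had a sample far from the others, and chance gives such a sample in about 1 in 20 groups. MZB1 in cerebellum was 3.14 in the 4-month female and 2.79 to 2.81 in the other older samples. POU2AF1 was 2.39 in the cortex of the 1-week female (others 2.11 to 2.16) and 1.21 in the kidney of the 2-month male (others 2.11 to 2.27). TNFRSF17 was 2.90 in the kidney of the 1-week female (others 3.52 to 3.60) and 2.98 in the liver of the 1-week male (others 4.03 to 4.10). FKBP11 was 6.42 in the cortex of the 1-week female (others 6.67 to 6.69) and 9.23 in the liver labelled 1 week, female (others 9.51 to 9.54). PIGR was 4.57 in the liver of the 2-month female (others 4.13 to 4.20).

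The age change was larger in spleen than in liver for MZB1 by 1.69, PRDM1 by 1.24, FKBP11 by 0.84 and DERL3 by 0.82 log2 units (limma interaction), and the difference for MZB1 and PRDM1 did not pass with slide as a term. This fit shares its spread over all tissues sampled in both sexes, and none of these genes passed between older and younger samples in spleen alone.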

How the results depend on the processing

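No result past the threshold changed its direction under any alternative run. The shares of all genes that passed in these runs are not given, so the counts below cannot be set against them. The count of members that passed between older and younger spleens, 1 in the report, was 2 with an offset of 50, 0 with the filter on dim genes, with sex as the replicate block or with the 2-year male added, 6 in a fit over 7 tissues, 5 with slide in it, and 0 to 3 when samples were left out (3 without the 4-week female, 2 without the 4-week male). In liver the count of 1 became 0 in the fit over 7 tissues, with or without slide, and was 0 to 1 with samples left out. In kidney the count of 0 became 1 on the processed signal, on the authors' values and with an offset of 50, and was 0 to 1 with samples left out. For 4 weeks to 2 months in spleen, 2 became 4 with an offset of 50, 1 under median scaling, 1 with the filter, and 0 to 2 with samples left out. From 1 to 4 weeks the count was 5 to 6 and for 1 week against later ages 6 to 7, between spleen and bone marrow 4 to 5 and between liver and kidney 3 to 4 with samples or pairs left out. The 4 age changes larger in spleen than in liver became 2 under median scaling and 2 with slide. Of the lists in older against younger spleens, the transcription factors had 2 calls on the processed signal and 0 on the authors' values and under median scaling, the survival genes 1 on the processed signal, the B cell genes 1 on the authors' values and 1 under median scaling, and the secretory genes 1 with an offset of 50. The IGJ rise in bone marrow from 1 week to 4 months, 6.94, was 5.89 with an offset of 50 and 6.85 under median scaling. TNFRSF17 was above a limit at the 99th percentile in 29 samples in place of 44.

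Values that changed sign had not passed in any case. From 4 weeks to 2 months in spleen PIGR was 0.46 on the processed signal, 0.27 on the authors' values and 0.088 under median scaling, and FKBP11 was -0.030 with Sp probes only. With samples left out, this step was -0.103 to 0.089 for PIGR, -0.157 to 0.0070 for XBP1 and -0.338 to 0.105 for PRDM1. PIGR was -0.131 to 0.061 from 1 to 4 weeks and -0.0070 to 0.121 for later ages against 1 week, and TNFRSF17 was -0.128 to 0.360 for older against younger. The cause of these shifts was not tested.

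The labels mark repeats by sex and not by number, and the sexes did not pair the samples, since deviations of the same sex in different ages had mean correlations between -0.007 and 0.058 per tissue. Beside POU2AF1 in spleen (adjusted p = 0.074), the block with sex changed no count of members. Depth is limited by signal over background, which leaves POU2AF1, TNFRSF17, PIGR and, outside spleen and marrow, MZB1 with little room to show a difference.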

Other observations

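The renal pelvis of the 2-year-old male, on a single array outside all comparisons, can be set beside the 8 arrays of the kidney of the same label. IGJ was 6.80 in the pelvis and 6.95 to 7.12 in the kidney repeats, and PRDM1 5.38 against 5.97 to 6.29. XBP1 was 11.26 against 10.85 to 11.07, and PIGR 4.64 against 4.09 to 4.54. MZB1, POU2AF1 and DERL3 lay within the range of the repeats (3.22, 2.12 and 5.99), FKBP11 was 7.81 against 7.85 to 8.02 and TNFRSF17 2.93 against 3.10 to 4.27.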
